A study of Mus musculus with 30 samples.

Results

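Glutathione S-transferases were followed in mice that lack Clpp and in wild-type mice. The family was taken as 10 symbols, Gsta2, Gsta3, Gsta4, Gstm1, Gstm2, Gstm3, Gstm5, Gstp1, Gstt1 and Gstt3, and 9 of them were measured among 17097 genes. Each gene was read from the probe set assigned to its symbol alone that had the highest mean over 30 arrays. The probe sets used for Gsta2, Gstm1, Gstm3 and Gstp1 have suffixes that Affymetrix gives to sets that several transcripts share or that may cross-hybridise, so part of their signal can come from related transcripts. Gsta3 is not listed in the probe table used here and was not analysed here. Testis, liver, brain, heart and skeletal muscle were sampled from ClpP knockout mice and from wild-type mice, all on a C57BL/6 background, with 3 arrays for each tissue and genotype, 15 per genotype. The labels give no age, no sex, no agent, and no description of the allele beyond its being a knockout. Nothing states that the 3 replicates of a group were separate animals, so p-values measure only how these samples spread, or that different tissues came from different animals.

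Glutathione S-transferases join the tripeptide glutathione to electrophilic compounds, which makes the products more soluble and ready for export from the cell. The soluble enzymes are dimers and fall into classes named by Greek letters, of which alpha (Gsta), mu (Gstm), pi (Gstp) and theta (Gstt) are represented here. Liver is the organ best known for this conjugation, and several of these genes respond to the transcription factor Nrf2 or to the nuclear receptors CAR and PXR. ClpP is the proteolytic subunit of a protease of the mitochondrial matrix.

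Promoter windows of RefSeq genes (assembly GRCm38.p6, 250 bases before to 50 after the start) were matched by symbol for 9 of the 10 genes. Those of 5 genes are shown because their transcripts behaved differently: Gsta2 was higher in knockout testis, liver and heart, Gstm1 in testis, liver and skeletal muscle, Gstm3 in liver, Gstp1 in testis, and Gstm5 was lower in testis. Gstm1, Gstm3 and Gstm5 lie in 1 cluster on chromosome 3 together with Gstm2. Bases are written 5′ to 3′ on the gene's strand, and capitals mark a match to 1 of 3 motifs on either strand, namely TGACNNNGC, the core of the antioxidant response element that Nrf2 binds with small Maf proteins, TGANTCA, an AP-1 type site, and TATAAA, the TATA box.
Gsta2 promoter (chr9:78347096-78347395, - strand): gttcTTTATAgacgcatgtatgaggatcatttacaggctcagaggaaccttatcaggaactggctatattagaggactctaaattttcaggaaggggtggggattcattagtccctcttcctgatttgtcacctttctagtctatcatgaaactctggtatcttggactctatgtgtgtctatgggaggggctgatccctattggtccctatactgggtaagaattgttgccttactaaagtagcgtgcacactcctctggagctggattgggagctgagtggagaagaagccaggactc
Gstm1 promoter (chr3:108017769-108018068, - strand): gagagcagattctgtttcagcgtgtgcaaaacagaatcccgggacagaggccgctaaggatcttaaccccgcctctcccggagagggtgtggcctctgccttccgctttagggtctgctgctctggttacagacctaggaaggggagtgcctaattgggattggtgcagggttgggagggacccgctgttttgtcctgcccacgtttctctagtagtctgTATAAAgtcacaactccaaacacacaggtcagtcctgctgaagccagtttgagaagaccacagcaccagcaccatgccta
Gstm3 promoter (chr3:107969125-107969424, - strand): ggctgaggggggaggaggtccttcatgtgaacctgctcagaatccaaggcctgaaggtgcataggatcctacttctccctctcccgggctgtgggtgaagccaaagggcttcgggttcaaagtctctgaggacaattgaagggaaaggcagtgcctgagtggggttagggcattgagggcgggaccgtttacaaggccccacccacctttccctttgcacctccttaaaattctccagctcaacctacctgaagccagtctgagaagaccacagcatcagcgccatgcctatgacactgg
Gstm5 promoter (chr3:107895604-107895903, + strand): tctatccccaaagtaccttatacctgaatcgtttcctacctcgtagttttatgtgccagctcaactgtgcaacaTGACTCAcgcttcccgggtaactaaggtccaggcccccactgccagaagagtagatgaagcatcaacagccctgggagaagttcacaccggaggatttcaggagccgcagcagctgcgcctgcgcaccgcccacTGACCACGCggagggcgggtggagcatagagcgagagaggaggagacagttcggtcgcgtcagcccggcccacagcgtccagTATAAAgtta
Gstp1 promoter (chr19:4037863-4038162, - strand): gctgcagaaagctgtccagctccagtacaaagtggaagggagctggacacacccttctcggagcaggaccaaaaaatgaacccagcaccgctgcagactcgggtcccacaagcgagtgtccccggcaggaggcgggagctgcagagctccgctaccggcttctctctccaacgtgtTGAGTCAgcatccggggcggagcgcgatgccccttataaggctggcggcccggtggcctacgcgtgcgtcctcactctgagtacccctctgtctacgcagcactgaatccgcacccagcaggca
The motif TGACNNNGC was in 2 of the 11 windows of these genes, at -42 in Gstm5 and at -121 in Gsta3, counted from the start site, and in 12.4% of all 32851 promoter windows. TGANTCA was found at -176 in Gstm5 and at -74 in Gstp1, against 7.81% of all windows. TATAAA stood at -30 in the Gstm1 window shown, at 40 in Gstm5 and, on the other strand, at -246 in Gsta2, against 13.6% of all windows. Another Gstm1 window, chr3:108017924-108018223, had no match to any of the motifs. The matches of different motifs did not overlap. A match describes letters in the window and is not evidence of binding.

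The targeted gene was checked in every sample. Clpp read 2.93 to 3.99 (log2 expression) on the 15 knockout arrays, against 5.88 to 9.21 on the 15 wild-type arrays, and the groups did not overlap in any tissue. Where its probe set lies relative to the disrupted part of the gene is not given in the sources used here. Array medians lay between 3.24 and 3.38, and a group mean under 4 is read below as near the background of the arrays, from which a difference can be understated. The number of arrays limits the precision. Each of 2 wild-type arrays carried transcripts of another tissue. Testis wild-type replicate 3 had epididymal markers (Lcn5 at 11.70, against 2.53 to 2.63 on the knockout testis arrays and 2.82 to 2.83 on the other wild-type testis arrays), and muscle wild-type replicate 1 had sperm transcripts (Prm1 at 8.11, against 3.02 to 3.26 in knockout muscle and 2.93 to 3.13 on the other wild-type muscle arrays). Genotype differences of the transferases in those tissues were also fitted without these arrays, while wild-type tissue levels and marker lists were not recomputed.

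In wild-type mice liver was the highest of the 5 tissues for 6 of the 9 transferases, testis for Gstm2 and Gstm5, and heart for Gsta4. The level in liver exceeded the mean of the other 4 tissues for 8 of the 9 genes (limma, adjusted p under 0.05), a call made for 25.5% of all genes. Testis exceeded the rest for 5 genes (32.1% of all genes), heart for 3 (27.5%), skeletal muscle for 1, Gstp1 (26.3%), and brain for 1, Gstm5 (28.1%). Because a probe set's brightness depends on its sequence, levels were compared between tissues within a gene and not between genes.

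Among the alpha class, Gsta2, a liver enzyme active on lipid hydroperoxides, averaged 8.58 ± 0.95 in wild-type liver (log2, SD, n = 3), 6.53 ± 0.22 in testis and 5.68 ± 0.62 in heart. Its means in muscle, 3.25, and brain, 2.71, were near background and were not called different (adjusted p = 0.168). Gsta4, which conjugates the lipid peroxidation product 4-hydroxynonenal, was flatter. It averaged 9.79 ± 0.08 in heart, 9.32 ± 0.26 in liver, 8.61 ± 0.17 in brain, 8.59 ± 0.11 in testis and 7.17 ± 0.25 in muscle, a span of 6.13-fold, and brain and testis were not called different (adjusted p = 0.910).

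Of the mu class, Gstm1 averaged 11.20 ± 0.44 in wild-type liver, 10.59 ± 0.22 in testis, 9.77 ± 0.22 in heart, 9.11 ± 0.07 in brain and 8.87 ± 0.23 in muscle, with no call between brain and muscle (adjusted p = 0.245). Gstm2 was highest in testis, 9.42 ± 0.22, followed by heart, 8.69 ± 0.14, liver, 7.71 ± 0.48, and muscle, 7.14 ± 0.29, and was near background in brain at 3.23 ± 0.15. Gstm3 was a liver transcript, with 7.91 ± 0.46 in liver and means of 2.90 to 3.49 in the other 4 tissues, all near background and none called different from its neighbour in the order. Gstm5 averaged 12.78 ± 0.11 in testis, 10.07 ± 0.28 in brain, 9.92 ± 0.11 in muscle, 9.30 ± 0.20 in heart and 7.22 ± 0.19 in liver, and its levels in brain and muscle were not called different (adjusted p = 0.368).

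Gstp1, the pi-class enzyme, was bright in every tissue. Its wild-type means were 12.80 ± 0.30 in liver, 11.67 ± 0.06 in muscle, 11.25 ± 0.07 in brain, 11.17 ± 0.09 in heart and 9.13 ± 0.45 in testis, with no call between brain and heart (adjusted p = 0.691). Of the theta class, Gstt1, which also acts on small halogenated compounds, averaged 11.12 ± 0.34 in liver, 7.57 ± 0.37 in heart, 6.42 ± 0.29 in brain, 5.90 ± 0.29 in muscle and 4.96 ± 0.29 in testis, and each tissue differed from the next. Gstt3 averaged 7.71 ± 0.31 in liver and 6.34 ± 0.88 in testis and was near background, at 3.63 to 3.97, in the other 3 tissues, with no call between neighbours among them.

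**Figure D1:**
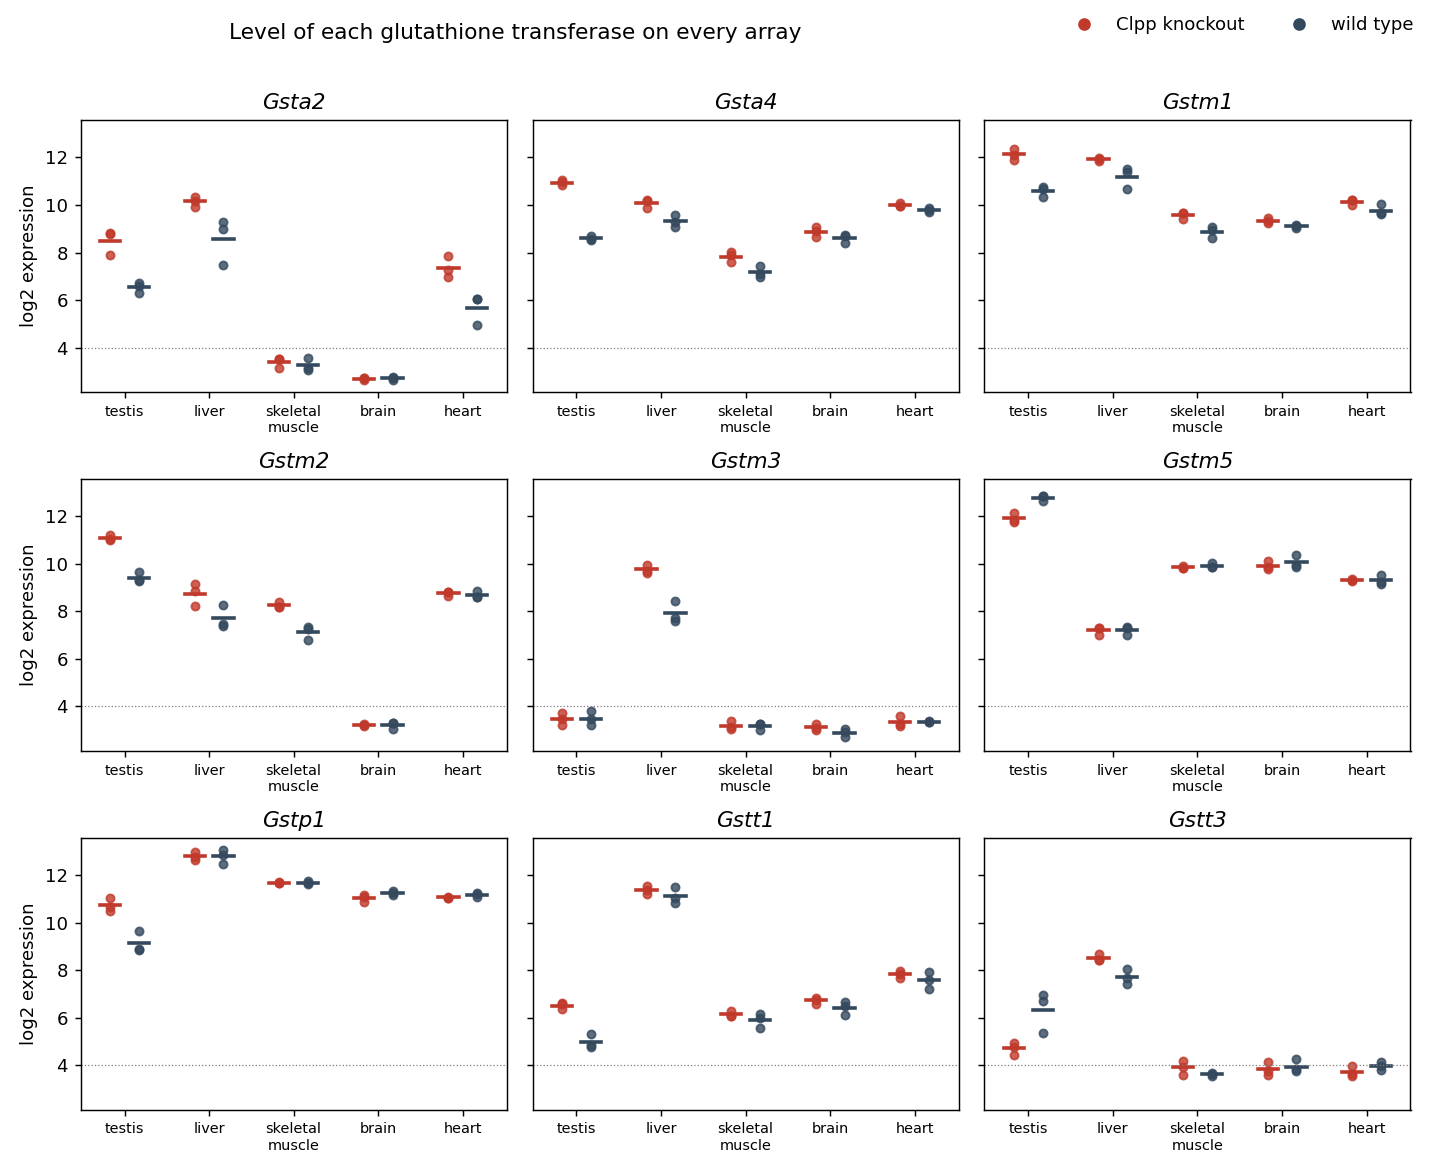
Log2 expression of the 9 transferases on every array, with knockout (red) left of wild type (blue) in each of 5 tissues. Each dot is 1 array, the bar is the mean of 3 arrays, and the dotted line at 4 marks the level read as near background. Gstm3 stands above that line in liver alone.

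In testis most of the family differed between genotypes. Of the 9 genes 6 were higher in the knockout, where 32.8% of all genes were higher, and 2 were lower, where 23.4% of all genes were lower. The 3 knockout arrays lay on 1 side of the 3 wild-type arrays for 8 of 9 genes, against 63.5% of all genes. Without testis wild-type replicate 3 all 8 calls remained. The median change over the 9 genes was 1.55 on the log2 scale, beside 0.02 over all genes and 0.69 over the 5168 genes whose mean was at least 6.

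Gsta4 changed most. It read 10.96, 11.03 and 10.84 on the knockout testis arrays, against 8.51, 8.56 and 8.71 on the wild-type arrays, a difference of 2.35 ± 0.14 (log2, SE, 5.10-fold, adjusted p = 3.58e-13). Gsta2 read 8.84, 8.78 and 7.90 in knockout testis, against 6.70, 6.61 and 6.29 in wild type, a difference of 1.97 ± 0.34 (adjusted p = 1.59e-05). For both alpha-class genes every knockout array was above every wild-type array.

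Within the mu class the direction differed between genes. Gstm1 read 12.37, 12.12 and 11.91 in knockout testis and 10.67, 10.34 and 10.76 in wild type, 1.54 ± 0.17 higher (adjusted p = 1.98e-08). Gstm2 read 11.01, 11.20 and 11.05 in knockout testis and 9.30, 9.29 and 9.67 in wild type, 1.66 ± 0.20 higher (adjusted p = 8.37e-08). Gstm5, by contrast, read 11.82, 11.77 and 12.15 in knockout testis, against 12.83, 12.65 and 12.85 in wild type, and fell by 0.86 ± 0.14 (1.82-fold lower, adjusted p = 7.59e-06). None of these 3 genes had overlapping groups. Gstm3 was near background in both genotypes, with means of 3.46 in knockout and 3.49 in wild-type testis. Gstm1 has 4 probe sets, and the dimmest gave the opposite sign in testis, -0.26 ± 0.14 at means of 4.08 in knockout and 4.34 in wild type, while the other 3 gave 1.20 to 1.62.

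Gstp1 read 11.03, 10.67 and 10.48 in knockout testis, against 8.84, 8.90 and 9.65 in wild type, 1.59 ± 0.17 higher (adjusted p = 7.33e-09). The highest wild-type value was that of the array with epididymal transcripts, and without it the difference was 1.85. The 2 theta-class genes went opposite ways. Gstt1 read 6.36, 6.61 and 6.56 in knockout testis, against 4.75, 4.83 and 5.30 in wild type, 1.55 ± 0.19 higher (adjusted p = 1.32e-07). Gstt3 read 4.43, 4.95 and 4.78 in knockout testis and 6.71, 5.34 and 6.97 in wild type, and fell by 1.62 ± 0.27 (adjusted p = 1.18e-05), or by 1.30 without the epididymal array. The groups did not overlap for any of the 3 genes, although wild-type replicate 2 of Gstt3 lay close to the knockout arrays.

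Markers of the testis cell types moved with these values. Of 19 elongating spermatid and sperm transcripts 17 were lower in knockout testis, with list means of 6.40 to 7.30 in knockout and 10.78 to 11.19 in wild type, and 14 of 14 round spermatid transcripts were lower. Earlier germ cell lists did not fall: of 11 spermatogonial transcripts 7 were higher and 0 lower (list means 6.81 to 6.98 in knockout, 5.76 to 6.04 in wild type). Of 11 spermatocyte transcripts 7 were higher and 3 lower (8.32 to 8.58 in knockout, 8.23 to 8.40 in wild type). All 14 Sertoli cell transcripts were higher (list means 7.27 to 7.48 in knockout, 5.67 to 5.87 in wild type), as were 10 of 11 Leydig cell transcripts (9.05 to 9.31 in knockout, 7.80 to 8.04 in wild type), with the remaining 1 lower, and 11 of 16 macrophage transcripts, with 1 lower. The difference between 3′ and 5′ control probe sets, which grows as RNA degrades, was smaller in knockout testis for actin (1.14 to 1.30, against 1.39 to 2.03 in wild type) and for GAPDH (0.51 to 0.57, against 0.86 to 1.17). In bulk tissue, fewer cells of a type and less RNA per cell cannot be told apart, and the part of cell make-up and RNA quality in the transferase values was not tested.

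In liver 5 transferases, from the alpha and mu classes, were higher in the knockout and none was lower. A higher call was made for 0.912% of all genes. The 5 were Gsta2, Gsta4, Gstm1, Gstm2 and Gstm3. The median change over the 9 genes was 0.77 on the log2 scale, beside -0.00075 over all genes and -0.04 over genes with a mean of at least 6. Arrays of the genotypes did not overlap for 5 of the 9 genes, against 16.7% of all genes, and these 5 were not the same 5: Gstt3 was among them and Gstm2 was not.

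Gstm3, a mu-class enzyme of liver, stood out. It read 9.94, 9.63 and 9.71 in knockout liver and 7.70, 8.44 and 7.59 in wild-type liver, a difference of 1.85 ± 0.18 (3.61-fold, adjusted p = 4.16e-07). Every knockout array exceeded every wild-type array by more than 1 log2 unit. Its probe set has the suffix that Affymetrix gives to sets shared between transcripts, and a second, dimmer probe set of the gene gave 2.53 ± 0.13, with means of 5.94 in knockout and 3.42 in wild-type liver. The wild-type mean of that second set was near background.

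Gsta2 read 9.93, 10.16 and 10.36 in knockout liver, against 8.97, 9.28 and 7.50 in wild type, a difference of 1.57 ± 0.34 (2.96-fold, adjusted p = 0.00852). The groups did not overlap, but wild-type replicate 3 lay far below the other 2 wild-type arrays. Without that array the difference was 1.02 and the adjusted p 0.0710. The second probe set of Gsta2 gave 1.42 ± 0.26. Gsta4 read 9.88, 10.16 and 10.23 in knockout liver and 9.27, 9.60 and 9.08 in wild type, 0.77 ± 0.14 higher (adjusted p = 0.00222), again with no overlap.

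Gstm1 read 11.97, 11.85 and 11.92 in knockout liver and 11.51, 11.39 and 10.69 in wild type, 0.72 ± 0.17 higher (1.64-fold, adjusted p = 0.0205). The groups did not overlap, and the low wild-type array was replicate 3, as for Gsta2. Without it the difference was 0.46 and the adjusted p 0.160, and leaving out knockout replicate 1 or knockout replicate 3 also moved the adjusted p past the threshold, to 0.0792 and 0.0511. Gstm2 read 9.15, 8.87 and 8.22 in knockout liver and 7.47, 8.26 and 7.39 in wild type, 1.04 ± 0.20 higher (2.06-fold, adjusted p = 0.00318). Here the groups overlapped, since knockout replicate 3 was just below wild-type replicate 2.

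The other 4 transferases did not pass the test in liver. Gstt3 read 8.41, 8.69 and 8.44 in knockout liver and 7.42, 8.04 and 7.66 in wild type, and the difference of 0.81 ± 0.27 had an adjusted p of 0.133 although the arrays did not overlap. Gstt1, at means of 11.38 in knockout and 11.12 in wild type, differed by 0.26 ± 0.19 (adjusted p = 0.661). Gstp1 and Gstm5 differed by -0.0015 and -0.02, with 95% intervals of -0.35 to 0.34 and -0.31 to 0.27.

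**Figure D2:**
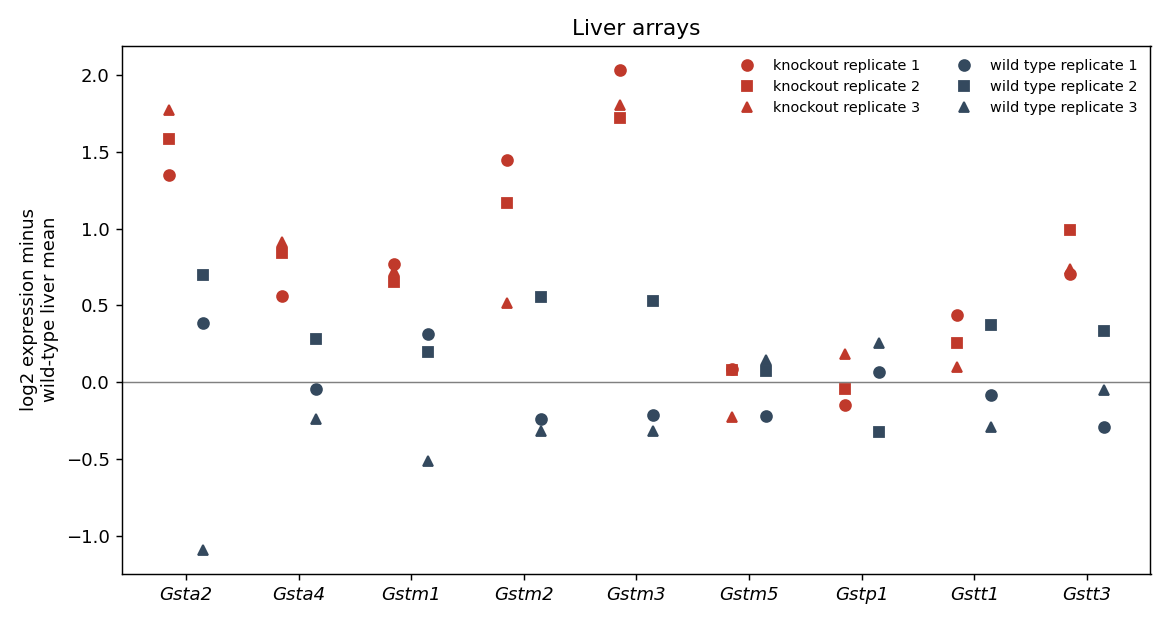
Each liver array's log2 expression minus the wild-type liver mean of the same gene, for 9 transferases, with knockout arrays in red and wild-type arrays in blue and the replicate number given by the symbol. Wild-type replicate 3 (blue triangle) is the lowest of its group for 6 genes and wild-type replicate 2 (blue square) the highest for 6.

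Other liver transcripts moved beside the transferases. Hepatocyte markers had list means of 11.27 to 11.46 in knockout and 11.29 to 11.33 in wild-type liver, and 1 of 11, Pck1, was higher. All 8 measured transcripts that are higher in male than in female mouse liver were lower in the knockout (list means 8.11 to 8.47, against 9.52 to 10.31 in wild type), and 5 of 9 female-predominant transcripts were higher. The female-predominant list averaged 5.93, 5.90 and 5.28 in knockout liver and 4.16, 5.11 and 3.46 in wild type, so wild-type replicate 3 was lowest here as for Gsta2 and Gstm1. The part of this difference in the transferase values was not tested. The 3′ to 5′ difference of the actin control probe sets was 1.79 to 2.39 in knockout liver and 1.67 to 1.77 in wild-type liver, with knockout replicate 1 highest. For GAPDH the genotypes overlapped, at 0.86 to 1.66 in knockout liver and 0.77 to 1.03 in wild-type liver.

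Skeletal muscle had 3 higher transferases, Gsta4, Gstm1 and Gstm2, and none lower, where 0.778% of all genes were higher. The genotypes' arrays did not overlap for these 3 genes and overlapped for the other 6, against 19.4% of all genes with no overlap. Gstm2 read 8.17, 8.39 and 8.18 in knockout muscle and 7.26, 7.35 and 6.81 in wild type, a difference of 1.11 ± 0.20 (2.16-fold, adjusted p = 0.00360). Gstm1 read 9.64, 9.65 and 9.41 in knockout muscle, against 8.94, 9.06 and 8.61 in wild type, 0.70 ± 0.17 higher (adjusted p = 0.0381). The other probe sets of Gstm1 gave 0.80 ± 0.19, 0.53 ± 0.19 and 0.19 ± 0.14, the last near background in both genotypes. In the limma fit of all probe sets only the first of these was called (adjusted p = 0.0291, 0.179 and 0.625). Gsta4 read 8.01, 7.88 and 7.61 in knockout muscle and 7.09, 7.45 and 6.98 in wild type, 0.66 ± 0.14 higher (adjusted p = 0.0203). In each case all knockout arrays were the higher ones, with the narrowest gap for Gsta4.

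The Gsta4 and Gstm1 calls in muscle were near the threshold. With replicate number as a block in the limma fit, neither was called (adjusted p = 0.0516 and 0.0587). Leaving out wild-type replicate 1, the array with sperm transcripts, gave 0.62 (adjusted p = 0.0762) for Gsta4 and 0.73 (adjusted p = 0.0773) for Gstm1, while Gstm2 stayed called at 1.17. Both calls were also lost without knockout replicate 1, knockout replicate 2 or wild-type replicate 3 (adjusted p 0.0656 to 0.0985 for Gsta4 and 0.119 to 0.165 for Gstm1), and that of Gstm1 without knockout replicate 3 (0.0563). The other 6 genes differed by -0.07 to 0.28, and Gsta2, Gstm3 and Gstt3 were near background. The median over the 9 was 0.24, beside -0.0024 over all genes. Transcripts of slow and cardiac-type fibres moved with the muscle groups: Myh7, the slow myosin heavy chain, read 10.65, 10.27 and 10.32 in knockout muscle and 5.79, 4.08 and 7.81 in wild type, and 4 of 11 cardiomyocyte markers were higher (Actc1, Myl2, Myl3 and Myoz2, list means 5.99 to 6.15 in knockout and 4.81 to 5.51 in wild type). Whether that bears on the transferases was not tested.

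In heart Gsta2 alone of the 9 genes was higher in the knockout, where 1.11% of all genes were. It read 7.28, 6.96 and 7.86 in knockout heart and 6.03, 6.05 and 4.96 in wild type, a difference of 1.68 ± 0.34 (3.22-fold, adjusted p = 0.00547). The groups did not overlap, and wild-type replicate 3 was about 1 log2 unit below its companions. The second probe set of Gsta2 gave 2.59 ± 0.26, with means of 5.75 in knockout and 3.16 in wild-type heart, the wild-type mean being near background. Dropping knockout replicate 3 gave 1.44 (adjusted p = 0.0543) and dropping wild-type replicate 3 gave 1.33 (adjusted p = 0.0554), neither of them called.

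Gsta4 read 9.97, 9.97 and 10.10 in knockout heart and 9.81, 9.86 and 9.71 in wild type, which did not overlap, with a difference of 0.22 ± 0.14 (adjusted p = 0.565). Arrays did not overlap for these 2 of the 9 genes, against 19.3% of all genes. Gstm1 differed by 0.37 ± 0.17 (adjusted p = 0.334), and the remaining 6 genes by -0.26 to 0.25. The median over the 9 was 0.07, beside -0.01 over all genes. Knockout heart replicates 2 and 3 carried adipocyte transcripts: the adipocyte list averaged 4.66, 6.40 and 7.04 in knockout heart, against 4.85, 4.77 and 4.71 in wild type. In the knockout array without them, replicate 1, Gsta2 was 7.28, above every wild-type array. With the other 2 knockout arrays left out, an alternative chosen after seeing the data in which the lone knockout array is assumed to vary like the other groups, the difference was 1.60 and the adjusted p 0.148. The cardiomyocyte list averaged 11.42, 12.62 and 12.58 in knockout heart, against 11.62 to 11.70 in wild type, with 0 of 11 called. The macrophage list averaged 5.65, 6.06 and 6.41 in knockout heart, against 5.38 to 5.67 in wild type, with 2 of 16 higher, Fcer1g and Vsig4. Hepatocyte markers averaged 3.45 to 3.66 in knockout heart and 2.84 to 3.14 in wild type, and 9 of the 11 were under 4 on all 6 heart arrays. The part of these transcripts in the Gsta2 value was not tested.

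In brain none of the 9 transferases passed the test (limma), and none had an unadjusted p under 0.05, where 0.415% of all genes were called in either direction. Differences ranged from -0.22 for Gstp1 to 0.30 for Gstt1, with a median of -0.01 beside 0.02 over all genes. The 95% intervals of the 9 differences reached -0.70 and 0.70 at the widest. Gstm1 read 9.22, 9.32 and 9.46 in knockout brain and 9.16, 9.13 and 9.03 in wild type, and Gstp1 read 11.08, 10.87 and 11.14 in knockout brain and 11.26, 11.32 and 11.17 in wild type. These 2 genes had no overlap between genotypes, against 15.8% of all genes. Gsta2, Gstm2, Gstm3 and Gstt3 were near background in brain. The choroid plexus and ependyma list averaged 6.0, 5.5 and 5.6 in knockout brain and 5.7, 5.9 and 4.3 in wild type, with 0 of 8 called. The part of this unevenness in the transferase values was not tested.

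**Figure D3:**
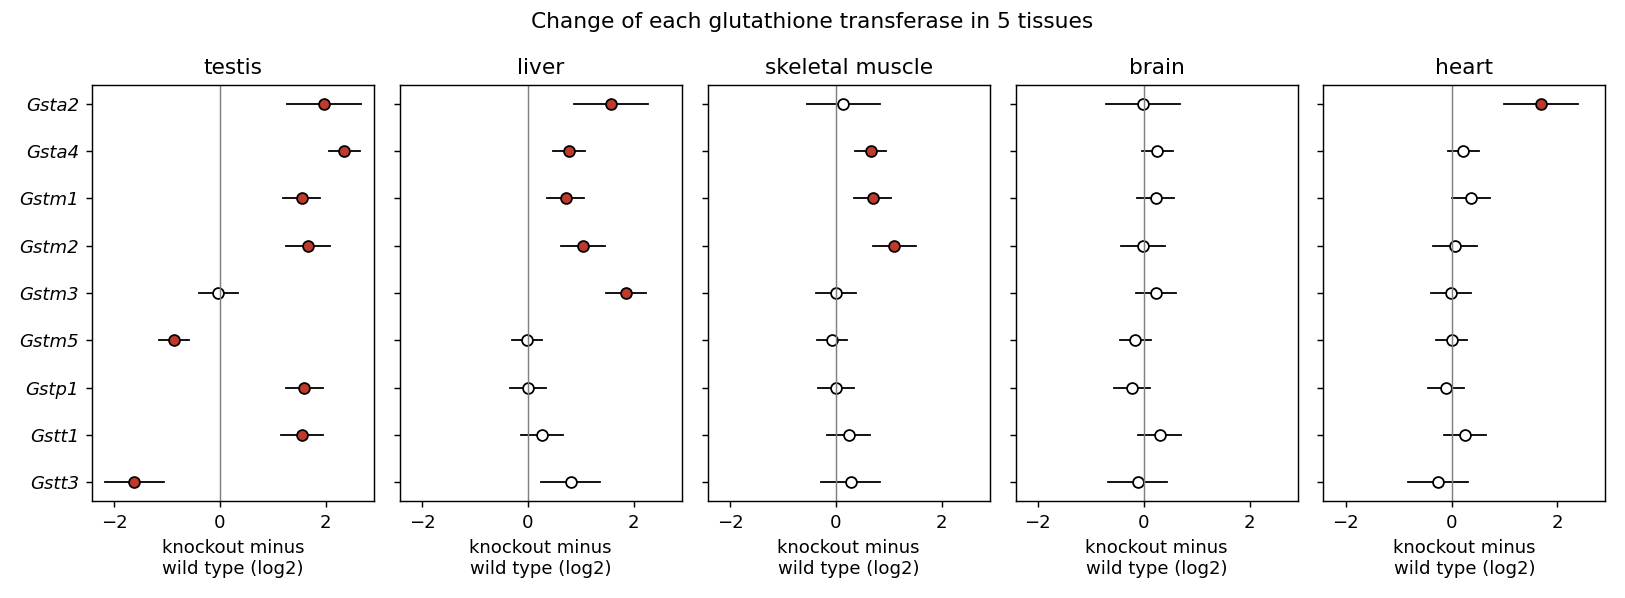
Knockout minus wild type (log2) of the 9 transferases in each of 5 tissues, with 95% intervals from the fit of all arrays. Filled points passed an adjusted p of 0.05. There are 8 filled points in testis, 5 in liver, 3 in skeletal muscle, 0 in brain and 1 in heart.

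The effect of the knockout was compared between tissues directly. With all 5 tissues it differed for all 9 transferases (moderated F test, limma), a call made for 52.3% of all genes. Among liver, muscle, brain and heart it differed for 2 of the 9, Gstm3 (adjusted p = 0.000106) and Gstm2 (adjusted p = 0.0277), where 1.66% of all genes were called. The Gstm2 call was lost, at an adjusted p of at most 0.0564, without any 1 of 6 arrays: knockout replicate 2 of liver, muscle or brain, wild-type replicate 2 of brain, knockout replicate 3 of heart or wild-type replicate 1 of heart. The difference of Gstm3 was 1.85 in liver and -0.01 to 0.23 in muscle, brain and heart, where it was near background. That of Gstm2 was 1.04 in liver, 1.11 in muscle, 0.07 in heart and -0.01 in brain, where it was near background. Gsta2, called in liver and heart, did not pass (adjusted p = 0.0658).

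The liver change minus the mean change of muscle, brain and heart passed for Gstm3 only, at 1.78 ± 0.21 (adjusted p = 1.47e-05), a call made in the higher direction for 0.415% of all genes. For Gsta2 this difference was 0.96 ± 0.39 (adjusted p = 0.322), for Gstt3 0.84 ± 0.31 (adjusted p = 0.261) and for Gstm2 0.66 ± 0.23 (adjusted p = 0.222). That Gsta4 and Gstm1 were called in liver and muscle but not in brain or heart is therefore not shown as a difference between tissues: their adjusted p values over these 4 tissues were 0.263 and 0.540.

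Related genes were read from 7 lists, and their counts in testis stand beside 32.8% of all genes higher and 23.4% lower in the knockout. Members and lists were chosen with earlier results of these data known, so comparing their medians is a description only. Of 12 measured other glutathione transferases, the liver had 1 higher, the mu-class Gstm6, at 8.38, 8.31 and 8.28 in knockout and 7.73, 7.92 and 7.83 in wild type (0.50 ± 0.12, adjusted p = 0.0291). Muscle had 1 lower, the membrane-bound Mgst1, at 8.82, 9.09 and 8.96 in knockout and 9.79, 9.84 and 10.04 in wild type (-0.93 ± 0.22, adjusted p = 0.0314), where 0.76% of all genes were lower, and without wild-type replicate 1 the adjusted p of Mgst1 was 0.0650. Testis had 7 higher, among them Gstm6 (2.20 ± 0.12) and Mgst1 (2.01 ± 0.22), and 1 lower, Mgst2 (-2.49 ± 0.19, near background in the knockout). Brain and heart had 0, with 0 and 1 at an unadjusted p under 0.05. The median change in liver was 0.77 over the 9 genes above, 0.30 over these other transferases, -0.02 over synthesis and recycling genes, -0.06 over peroxidases, 0.16 over exporters, 0.27 over Nrf2 targets, 0.24 over CAR and PXR targets and 0.13 over regulators.

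Of 23 genes that make and recycle glutathione, 0 passed in liver (limma), where 5 had an unadjusted p under 0.05. In heart 3 of 23 were higher: Gclm, the modifier subunit of the enzyme that limits glutathione synthesis (0.97 ± 0.17), Slc3a2, a subunit of amino acid exchangers (1.09 ± 0.14), and Chac1, which degrades glutathione (2.58 ± 0.53, near background in wild type). Chac2 was lower there (-0.98 ± 0.15), where 1.07% of all genes were lower. Without knockout heart replicates 2 and 3, which carry adipocyte transcripts, Slc3a2 alone of these 4 stayed called, and the heart calls of Abcb1a and Ugt1a6a given below were lost too. Muscle and brain had 0 of 23, with 3 and 2 at an unadjusted p under 0.05. In testis 11 were higher and 6 lower, among the lower ones the glutaredoxin Glrx2 (-2.99 ± 0.13), Oplah, which recycles oxoproline (-2.09 ± 0.17), and Ggt7 (-2.36 ± 0.15, near background in the knockout). The 8 glutathione peroxidases had no call outside testis, and 1, in heart, had an unadjusted p under 0.05 there. In testis 2 were higher and 3 lower. Among the lower ones were Gpx4, which reduces lipid hydroperoxides in membranes (-1.49 ± 0.13), and Gpx6 (-3.92 ± 0.20), which was near background in the knockout. The third was Gpx5, known from the epididymis, at 3.10, 3.24 and 3.40 in knockout testis and 3.21, 3.52 and 11.82 in wild type. Its call rested on the wild-type array with epididymal transcripts: without it the difference was -0.12 (adjusted p = 0.509), and 3 peroxidases were higher and 2 lower.

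Of 8 conjugate exporters, liver had Abcb1a higher (1.26 ± 0.21, near background in wild type) and Abcg2 lower (-0.95 ± 0.16), where 1.5% of all genes were lower, and heart had Abcb1a lower (-1.07 ± 0.21). In testis, where 32.8% of all genes were higher and 23.4% lower, 2 exporters were higher and 2 lower. Those changing most were Abcc3 (-3.00 ± 0.28), Abcg2 (-2.04 ± 0.16) and Abcc1 (1.99 ± 0.15). Among 28 Nrf2 targets that are not transferases, liver had 2 higher, the heme oxygenase Hmox1 (1.39 ± 0.33) and the carbonyl reductase Cbr1 (0.77 ± 0.11), heart 2 higher, Gclm and Ugt1a6a (1.54 ± 0.25, near background in wild type), and muscle 1 lower, Srxn1 (-0.72 ± 0.18). In testis 21 were higher, Akr1b8 by 2.27 ± 0.29, and 4 lower, among them Srxn1 (-3.97 ± 0.18, near background in the knockout) and Osgin1 (-3.40 ± 0.24), the list's median being 1.39, beside 0.69 over genes with a mean of at least 6.

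Of 19 CAR and PXR targets, 5 were higher in knockout liver and none lower: Cyp2b9 (3.70 ± 0.59), Cyp2b13 (2.87 ± 0.33, near background in wild type), Cyp2c55 (1.04 ± 0.22), Slco1a4 (1.04 ± 0.17) and, named after its value was seen, Cyp2a5 (0.99 ± 0.19). The first 2 of these cytochrome P450 genes also belong to the female-predominant list. Cyp2b9 read 9.06, 9.27 and 7.81 in knockout liver and 4.99, 7.38 and 2.66 in wild type, so its lowest array was again wild-type replicate 3. No gene of this list passed in muscle, brain or heart in the main fit, where 0, 2 and 3 had an unadjusted p under 0.05. In heart Cyp3a11 differed by 0.81 in that fit and by 1.67 without knockout replicates 2 and 3, which leaves 1 knockout array. In testis 4 genes of the list were higher and 2 lower, where 32.8% and 23.4% of all genes were. The 14 regulators, which include Nfe2l2 (Nrf2), Nr1i3 (CAR) and Nr1i2 (PXR), had no call outside testis, with 1 to 3 per tissue at an unadjusted p under 0.05. In testis 8 were higher, Nfe2l2 by 1.25 ± 0.18.

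**Figure D4:**
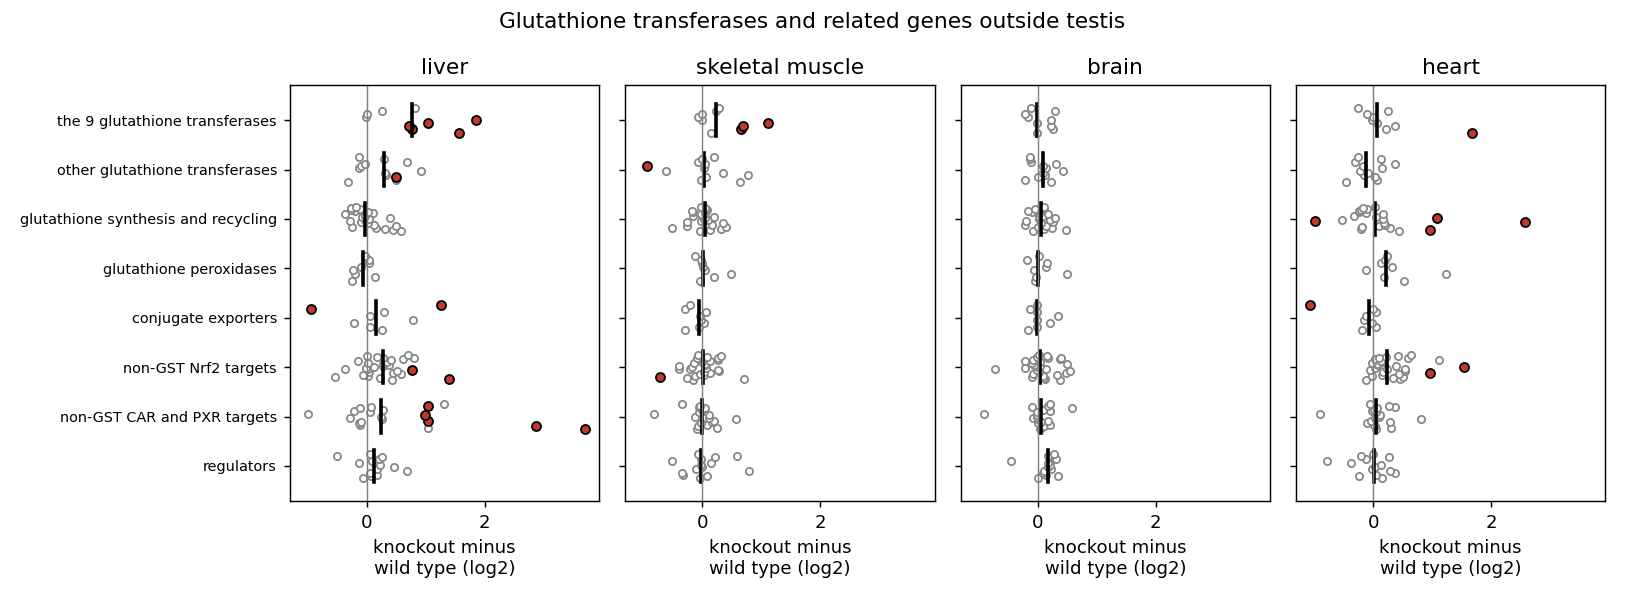
Knockout minus wild type (log2) of the 9 transferases and of 7 lists of related genes in liver, skeletal muscle, brain and heart. Each point is a gene, filled where its adjusted p was under 0.05, and the black bar is the list's median. In liver the 9 transferases have the highest median, 0.77, and the CAR and PXR targets the 2 largest changes. Members and lists were chosen with earlier results known, so this order is a description.

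Across the 30 arrays the transferases did not follow each other closely. The 36 pairs had Pearson r from -0.91 to 0.92, which mainly describes tissue. After each array's group mean was removed, r ranged from -0.49 to 0.60 and was above 0 for 26 pairs, with Gstm2 and Gstt1 (0.60) and Gsta2 and Gstm1 (0.57) the highest. These points share RNA samples and arrays, so the values are descriptions. The same array was often extreme for several genes. Wild-type replicate 3 was the lowest of its group for 8 of the 9 in heart and for 6 each in liver, muscle and brain. In testis it was the highest for 7. The labels do not say whether arrays of the same number came from the same animal.

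Over the 30 arrays and 9740 genes with a group mean of at least 6, the patterns most like each transferase, by Pearson r, were as follows. Gsta2 was closest to Casp6 (0.96), Stt3a (0.96) and Rrbp1 (0.95), and Gsta4 to Sf3b3 (0.92), Diaph2 (0.90) and Tmem129 (0.90). Gstm1 was closest to Slc25a45 (0.95), Ddost (0.95) and Ephx1 (0.94), and Gstm2 to Mrpl24 (0.96), Pgap2 (0.94) and Tmpo (0.94). For Gstm3 they were the liver transcripts Rdh16f2 (0.99), Hsd17b6 (0.99) and Abcg5 (0.99), and for Gstm5 Ift122, Cby1 and Asrgl1 (each 0.98). Gstp1 was closest to Ei24, Vmp1 and Atp13a3 (each 0.97), Gstt1 to Hsd3b7 (0.98), Aco1 (0.97) and Psen2 (0.97), and Gstt3 to Acot12, Aqp9 and C8g (each 0.97). The tissue differences dominate these values.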

How the data were processed

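RNA from 5 tissues of ClpP knockout and wild-type mice was measured on 30 Affymetrix arrays, 3 per tissue and genotype. Per the submitters' processing notes the authors used R 2.14.0 and RMA, and the deposited values are log2 expression per probe set. Whether all arrays were normalized together is not given in the sources used here. Of 45141 probe sets, 28898 had 1 gene symbol in the supplied table, 551 several and 15692 none, and 1 probe set per symbol, that with the highest mean, gave 17097 genes.

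All genes were fitted together with limma 3.58.1 in R 4.3.3 (10 group means, 20 residual degrees of freedom, eBayes), with two-sided tests and Benjamini-Hochberg adjustment over all genes within each contrast, called at 0.05. Errors of differences are standard errors of this fit, which takes the same spread for all groups of a gene. They can be too small in a tissue that varied more, as liver did for Gsta2. Between-tissue differences used moderated F tests. The fit was also run on simulated data with the same spread in every group, which cannot show the effect of unequal spread between tissues.

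The family's members and the lists were chosen with earlier results of these data known. All 10 members are named, up to 4 called genes per list and tissue (testis up to 3), and the 3 genes most like each member, and marker genes were picked for naming after their values were seen. The main fit treated samples as unpaired, and the labels do not say what replicate numbers mean. Deviations of same-numbered arrays correlated at -0.28 to 0.40 (0.08, 0.09 and 0.40 in muscle), and in 0 tissues did every pair exceed 0.1. With 3 arrays per group this cannot decide whether the numbers pair the samples. Alternatives were other fits, blocks, normalizations, filters and probe set rules, and each array left out in turn.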

Additional observations from a re-analysis of the deposited data

Results flagged for a closer look

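The knockout effect differed between the 5 tissues for every one of the 9 transferases by the moderated F test (limma), which 52.3% of all genes also passed. The adjusted p was 0.00123 for Gsta2, 8.52e-09 for Gsta4, 0.000477 for Gstm1, 3.85e-05 for Gstm2, 1.36e-06 for Gstm3, 0.00232 for Gstm5, 1.17e-06 for Gstp1, 0.000463 for Gstt1 and 0.000112 for Gstt3. Gstm3 was near background in all tissues but liver.

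With testis set aside, the effect still differed between liver, muscle, brain and heart for Gstm3 (adjusted p = 0.000106) and Gstm2 (adjusted p = 0.0277), although the Gstm2 call was lost without any 1 of 6 arrays (adjusted p at most 0.0564). The change of Gstm3 in liver exceeded the mean of the other 3 tissues by 1.78 on the log2 scale.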

How the results depend on the processing

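No called difference reversed under any alternative, and of 909 recomputed differences, called or not, 28 lost a call and 0 gained one. Only differences called in the main fit can lose a call, and these were 8 in testis, 5 in liver, 3 in muscle, 1 in heart and 0 in brain. All 28 losses fell in liver, muscle or heart. Uncalled differences of at most 0.16 in size took the other sign in 43 recomputed values. The testis count stayed at 8 under every alternative, as did the 9 genes whose effect differed between 5 tissues, and each gene's highest wild-type tissue was the same under every normalization and probe set rule tried. Fitting each tissue on its own 6 arrays left 1 call in liver, Gstm3 (adjusted p = 0.0315), 0 in muscle and 0 in heart. The spread then rests on fewer arrays and on that tissue alone, while the main fit shares it over all groups. For Gsta2 the SD was 0.95 in wild-type liver and 0.06 in wild-type brain, where the gene was near background. With 1 array left out in turn, the counts were 3 to 5 in liver (3 without wild-type replicate 3), 1 to 3 in muscle, 0 to 1 in heart and 0 in brain. In muscle Gsta4 and Gstm1 lost their calls without knockout replicate 1, knockout replicate 2, wild-type replicate 1 or wild-type replicate 3, and Gstm1 also without knockout replicate 3. For the difference between liver, muscle, brain and heart the count was 1 to 3, Gstm2 losing its call without any 1 of 6 arrays, and for liver against the other 3 tissues 1 to 2, Gstm2 being the second. With the replicate block the muscle count was 1, Gsta4 (adjusted p = 0.0516) and Gstm1 (0.0587) losing their calls, and no other call changed. Whether replicate numbers pair the samples is not known. Alternatives chosen after seeing the data left out arrays with transcripts of another tissue or cell type. Leaving out both arrays with transcripts of another tissue left 1 call in muscle, and leaving out knockout heart replicates 2 and 3 left 0 in heart and 1 gene, Gstm3, in the difference between 4 tissues. Array weights, the mean of all probe sets and the most variable probe set each added Gsta2 to that difference, making 3. The number of arrays, 3 per group, limits what could be called.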
